A study of Mus musculus with 33 samples.

Results

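The nuclear-encoded genes of the mitochondrial respiratory chain were followed through sorted mouse microglia of 10 groups. They were taken by symbol: all protein-coding genes starting with Nduf, Uqcr or Atp5, those starting with Cox4 to Cox8, and Sdha, Sdhb, Sdhc and Sdhd. This gave 94 of the 54146 gene records counted. They were sorted into 36 records of complex I, 8 complex I assembly factors, 4 records of complex II, 8 of complex III, 20 of complex IV (Ndufa4 and Ndufa4l2 among them) and 18 of complex V. Sorting was by symbol, and apart from the Ndufaf genes it did not separate structural subunits from other factors. Atp5o has 2 records, of which 1 had no count in any library. Bulk RNA-seq was made from 33 libraries of microglia that had been isolated from single brains without enzymes and sorted by flow cytometry. All mice were labelled C57BL/6 and female. In the IRF8 experiment at 3 months, wild type (WT, n = 4) was set beside IRF8KO mice lacking the transcription factor IRF8 throughout the body (n = 4). At 9 months, WT, IRF8KO, 5xFAD (an amyloid transgenic line that models Alzheimer's disease) and 5xFAD/IRF8KO mice had 3 libraries each. The Batf3 experiment at 3 months compared 3 WT and 3 Batf3-/- mice, which lack the IRF8 partner BATF3 and are called Batf3KO here. The conditional experiment at 3 months compared 3 IRF8flox mice (flox) with 4 IRF8floxCx3cr1CreERT2 mice (Cre). Both arms received tamoxifen on 5 days from postnatal day 12. The design text gives the mice a Rosa26 LSL-EYFP reporter and states that YFP-positive microglia were sorted. The recombinase is driven from the Cx3cr1 gene, which macrophages outside the brain also use, so that deletion is not limited to microglia by design.

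Oxidative phosphorylation passes electrons from NADH through complex I, or from succinate through complex II, to ubiquinone, then through complex III and cytochrome c to complex IV, which reduces oxygen. The protons pumped on the way drive ATP synthesis by complex V. Most subunits are encoded in the nucleus and imported, while a few core subunits are encoded in mitochondrial DNA, and complex II is wholly nuclear-encoded and also a step of the tricarboxylic acid cycle. Microglia, the resident macrophages of the brain, are known to shift between respiration and glycolysis when activated.

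Several libraries stood apart from their labels or groups. Depth ranged from 605376 to 18357762 counts in genes. Irf8 counts were reduced but present in germline IRF8KO libraries, at 104 to 185 CPM (counts scaled to a common library total) against 253 to 333 in WT at 3 months and at 15.9 to 138 against 500 to 583 at 9 months. The exons removed are not given in the labels, so reads outside them check nothing. In the conditional experiment Irf8 was at 953 to 1186 CPM in flox and at 346 to 481 in 3 Cre libraries, but at 1126 in the library labelled Cre 1. Batf3 was at 0 to 2.06 CPM in germline IRF8KO at 3 months against 20 to 70.1 in WT, and had no count in IRF8KO at 9 months against 14.5 to 18.4 CPM in WT. In the conditional experiment it stood the other way round, at 1.89 to 4.36 CPM in the libraries labelled flox, 1.31 in Cre 1 and 32.2, 63.9 and 43.8 in Cre 2 to 4. Without Cre 1 the libraries labelled Cre had Batf3 higher (log2 fold change 3.78, SE 0.31, adjusted p = 3.72e-08) and Irf8 lower (−1.32, SE 0.19, adjusted p = 5.80e-05). Irf8 thus follows the flox and Cre labels in all but 1 library, while Batf3 runs against them. In the Batf3 experiment Batf3 was at 0.429 to 0.508 CPM in Batf3KO and at 23.1 to 27.7 in its WT. Transcripts of Y-linked genes were present in 16 of the 33 libraries, although all are labelled female. In 5xFAD/IRF8KO they were present in 3 of 3 libraries and Xist in 2, so that some libraries held both. In IRF8KO at 9 months each was present in 2 of 3 libraries. The source of these transcripts was not tested. Neutrophil markers took on average 3.84% of gene counts in the WT libraries of the IRF8 experiment at 3 months, 10.7% in IRF8KO at 3 months, 8.16% in IRF8KO at 9 months and 12% in 5xFAD/IRF8KO, and at most 0.0110% in any library of the other groups. Red blood cell markers took 6.43%, 5.05%, 8.32% and 4.87% in those 4 groups. Oligodendrocyte markers took 2.56%, 1.95%, 0.90% and 0.540% there, and at most 0.0514% in any other group mean. Monocyte markers took 0.149%, 0.885%, 1.06% and 1.41%, and at most 0.000898% in any other group mean. For border macrophage markers it was 0.0109%, 0.125%, 0.0874% and 0.126%, against at most 0.0135%. Homeostatic microglia markers took 2.33%, 1.03%, 0.799% and 0.884% in the same 4 groups, against 7.94% in WT and 7.22% in 5xFAD at 9 months, 8.23% in WT and 8.0% in Batf3KO of the Batf3 experiment, 4.63% in flox and 4.60% in Cre. In bulk libraries, fewer cells of a type and less RNA per cell cannot be told apart.

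Upstream sequences were available for 76 of the 94 members in RefSeq (GRCm38.p6). In windows of 300 bases (250 before and 50 after each of 81 starts), 3 motifs known from promoters of respiratory genes and 1 motif of the IRF family were searched on both strands. The NRF1 palindrome (GCGC, AT and GCGC in a row) was in 7 of the 81 windows (8.64%, against 0.971% of 32851 windows of all genes). The ETS-family core CCGGAAG was in 18 (22.2%, against 8.86%), and the YY1 motif AAGATGGC in 11 (13.6%, against 2.75%), 7 of them at complex I subunits. The IRF pair (GAAA, any 2 bases and GAAA) was in 2 (2.47%, against 3.44%), at Ndufa9 and Ndufs3. A match is a description of letters, not a bound site or a cause. The 250 bases upstream of 5 members are shown 5′ to 3′ on the gene's strand, because together they carry the NRF1, ETS and IRF matches in genes of 4 complexes, and motif letters are in capitals. Ndufa11 lies downstream of chr17:56717512-56717761 (plus strand, NRF1), Ndufs3 of chr2:90904722-90904971 (minus strand, ETS and IRF), Uqcr11 of chr10:80406822-80407071 (minus strand, ETS), Cox6a1 of chr5:115348959-115349208 (minus strand, NRF1 and ETS) and Atp5k of chr5:108434400-108434649 (minus strand, NRF1, with an ETS match in the 50 bases after the start, not printed).
Ndufa11: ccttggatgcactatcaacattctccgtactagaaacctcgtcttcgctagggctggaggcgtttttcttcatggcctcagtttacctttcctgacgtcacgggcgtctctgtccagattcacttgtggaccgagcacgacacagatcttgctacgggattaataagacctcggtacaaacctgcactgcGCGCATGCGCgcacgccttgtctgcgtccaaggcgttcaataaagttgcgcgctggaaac
Ndufs3: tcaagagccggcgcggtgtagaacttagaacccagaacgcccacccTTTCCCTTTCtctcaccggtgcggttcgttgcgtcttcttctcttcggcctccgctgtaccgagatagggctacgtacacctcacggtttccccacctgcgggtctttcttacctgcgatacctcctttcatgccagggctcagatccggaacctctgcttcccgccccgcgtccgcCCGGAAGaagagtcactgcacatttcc
Uqcr11: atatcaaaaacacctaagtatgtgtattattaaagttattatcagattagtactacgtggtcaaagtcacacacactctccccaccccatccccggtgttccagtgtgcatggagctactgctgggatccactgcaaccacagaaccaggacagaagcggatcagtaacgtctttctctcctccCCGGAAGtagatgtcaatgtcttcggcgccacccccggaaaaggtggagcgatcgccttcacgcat
Cox6a1: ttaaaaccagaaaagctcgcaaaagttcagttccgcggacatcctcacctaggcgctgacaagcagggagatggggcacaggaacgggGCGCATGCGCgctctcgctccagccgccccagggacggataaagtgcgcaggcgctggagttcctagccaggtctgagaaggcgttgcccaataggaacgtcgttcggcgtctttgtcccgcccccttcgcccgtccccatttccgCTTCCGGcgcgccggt
Atp5k: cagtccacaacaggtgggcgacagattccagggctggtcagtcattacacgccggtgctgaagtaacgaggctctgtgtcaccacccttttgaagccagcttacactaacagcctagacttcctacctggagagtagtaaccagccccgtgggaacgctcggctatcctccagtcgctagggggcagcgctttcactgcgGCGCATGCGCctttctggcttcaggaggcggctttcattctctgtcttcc

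The share of gene counts given to the respiratory chain differed between groups of the same genotype as well as between genotypes. It was highest in WT of the IRF8 experiment at 3 months, at 2.98% ± 1.03 (SD, n = 4), where the libraries held 2.06%, 2.55%, 2.86% and 4.44%. All 4 lay above every other library of the series. Next came flox (1.65% ± 0.120, n = 3), IRF8KO at 9 months (1.59% ± 0.321, n = 3), Cre (1.5% ± 0.152, n = 4), IRF8KO at 3 months (1.48% ± 0.178, n = 4), 5xFAD/IRF8KO (1.30% ± 0.306, n = 3) and 5xFAD (1.09% ± 0.114, n = 3). Each of these neighbours overlapped the next. The lowest were Batf3KO (0.659% ± 0.00658, n = 3), WT of the Batf3 experiment (0.613% ± 0.0202, n = 3) and WT at 9 months (0.612% ± 0.0616, n = 3), all below every 5xFAD library. The Batf3KO libraries lay above those of their WT, and WT at 9 months overlapped both.

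**Figure D1:**
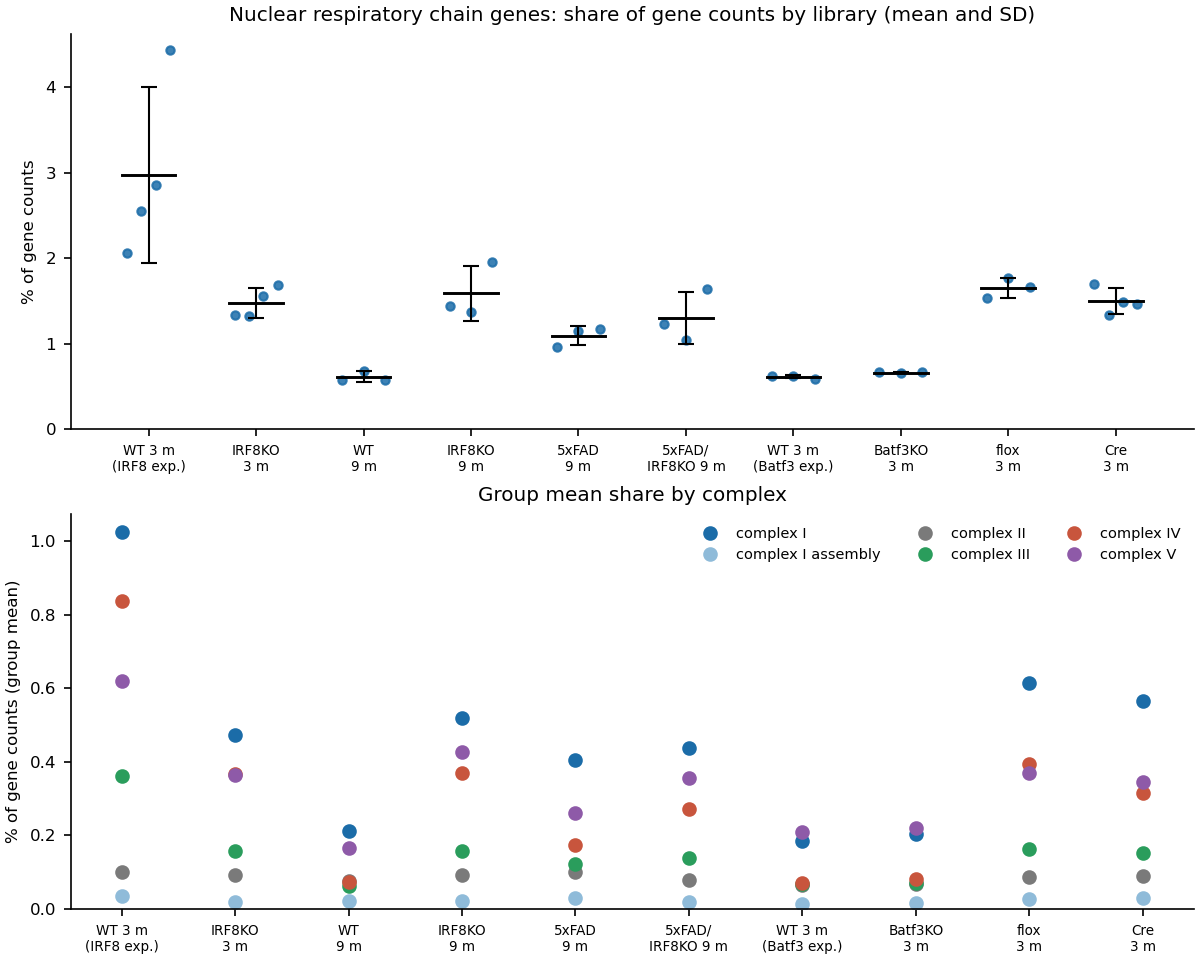
Top: percent of gene counts in the 94 respiratory chain genes, 1 point per library, with group mean and SD (black). Bottom: group mean share of each complex in percent of gene counts. WT at 3 months of the IRF8 experiment reaches 2.98% on average and WT at 9 months 0.612%, while complex II stays between 0.0659% and 0.102%.

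The complexes did not contribute equally to these differences. Complex IV, the cytochrome c oxidase, took 0.837% of gene counts in WT of the IRF8 experiment at 3 months, 0.0736% in WT at 9 months and 0.0712% in WT of the Batf3 experiment. Complex I took 1.02%, 0.212% and 0.185% in the same groups, complex III 0.363%, 0.0637% and 0.0678%, and complex V 0.619%, 0.167% and 0.209%. Complex II, succinate dehydrogenase, took 0.0996%, 0.0750% and 0.0659%. The group means of complex II ran from 0.0659% to 0.102% over all 10 groups. Of the 89 members that reached 5 CPM in some group, 77 were highest in WT of the IRF8 experiment at 3 months, 60 were lowest in WT at 9 months and 22 in WT of the Batf3 experiment. The 5 that never reached it were Cox4i2, Cox7b2, Cox8c, Ndufa4l2 and the second Atp5o record.

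Divided by transcript length, the median member was at 305 CPM per kilobase in WT of the IRF8 experiment at 3 months, 45.7 in WT of the Batf3 experiment and 36.6 in WT at 9 months. The leading member of each complex in WT of the Batf3 experiment was Ndufs8 in complex I (165 CPM per kilobase), Ndufaf7 among the assembly factors (29.4), Sdhb in complex II (141), Uqcrc1 in complex III (201), Cox4i1 in complex IV (243) and Atp5b in complex V (410). The leaders in WT of the IRF8 experiment at 3 months were Ndufa3 (1905 CPM per kilobase), Ndufaf8 (184), Sdhb (355), Uqcr11 (2956), Cox6a1 (3442) and Atp5j (1296). In 5 of the 6 classes the leader thus changed between 2 WT groups of the same age, with Sdhb, the iron-sulfur subunit of complex II, as the exception.

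The difference between these 2 WT groups was tested gene by gene, because both carry the same genotype and age label. With edgeR's quasi-likelihood test and Benjamini-Hochberg adjustment over all genes (called at an adjusted p under 0.05, as throughout), 78 of 90 tested members were higher in the IRF8 experiment and none lower, where 26.5% of all genes tested were called higher. The median member differed by 3.11 on the log2 scale, against 0.12 for all genes. Cox8a, the small subunit VIII of complex IV (chr19:7215153-7217616, minus strand), was at 1116, 1286, 1766 and 3212 CPM in WT of the IRF8 experiment and at 111, 106 and 86.8 in WT of the Batf3 experiment. The groups were far apart (log2 difference 4.27, SE 0.48, adjusted p = 0.000240). Atp5k, the e subunit of complex V, differed by 5.09 (SE 0.56, adjusted p = 0.000233). Cox7a1, the heart and muscle isoform of subunit VIIa, differed by 6.62 (SE 1.10, adjusted p = 0.00138).

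Not all members took part. Sdha, the flavoprotein of complex II (chr13:74322254-74350280, minus strand), was at 263, 292, 502 and 248 CPM in WT of the IRF8 experiment and at 354, 351 and 316 in WT of the Batf3 experiment. These ranges overlapped (log2 difference 0.02, SE 0.31, adjusted p = 0.970). The catalytic α and β subunits of complex V, Atp5a1 and Atp5b, were not called either, with log2 differences of 0.21 (SE 0.30) and 0.46 (SE 0.35). In the same pair, 9 of 9 tested mitochondrially encoded chain genes were called higher, as were 14 of 38 assembly genes outside the symbol rule, 5 of 17 tricarboxylic acid cycle genes (1 lower) and 9 of 22 glycolysis genes (5 lower). Also called higher were 10 of 10 tested neutrophil markers, 7 of 7 red blood cell markers and 8 of 8 neuron markers, while 8 of 14 homeostatic microglia markers were lower. Their part in the members' difference was not tested. Coding genes under 1000 bases that are neither members, markers nor mitochondrial took 16.6% of gene counts in WT of the IRF8 experiment and 7.95% in WT of the Batf3 experiment. Y-linked transcripts were present in 3 of the 4 WT libraries of the IRF8 experiment and Xist in 0, against 0 and 3 of the 3 WT libraries of the Batf3 experiment, so that sex and experiment cannot be told apart. In 75 of 90 members every library of the IRF8 experiment lay above every library of the Batf3 experiment, which held for 25.1% of all genes. Cox8b and Cox7b2 had no count in WT of the Batf3 experiment and were at least 401-fold and at least 26.1-fold higher in the IRF8 experiment, taking 3 counts over the group as the floor.

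Loss of IRF8 at 3 months went with lower respiratory chain transcripts. Of 89 tested members, 35 fell, none rose and 83 had a fold change below 0, with 3.24% of all genes called lower. The median member was at −1.16 on the log2 scale, against −0.02 for all genes. The falls comprised 18 of 36 complex I subunits, 2 of 8 assembly factors, 0 of 4 complex II subunits, 4 of 8 in complex III, 5 of 16 in complex IV and 6 of 17 in complex V. Libraries of the 2 genotypes did not overlap in 56 members, all lower in IRF8KO, against 7.86% of all genes. The count of 35 changed with single libraries. It was 0, 5, 2 and 3 when IRF8KO replicate 1, 2, 3 or 4 was left out, and 27 to 36 when a WT library was. Without these IRF8KO libraries all genes called were 305, 471, 468 and 501, against 970 with all libraries. With edgeR, an unadjusted p under 0.05 was then reached by 55, 64, 56 and 59 members, against 65.

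In complex I, Ndufa11, a small membrane-arm subunit whose NRF1 match is printed above, was at 306, 334, 386 and 930 CPM in WT and at 121, 162, 149 and 138 in IRF8KO. Every IRF8KO library was lower (log2 fold change −1.84, SE 0.39, adjusted p = 0.0163). Ndufs8, an iron-sulfur subunit of the peripheral arm (chr19:3908863-3912774, minus strand), was at 624, 414, 440 and 714 CPM in WT and at 190, 236, 195 and 181 in IRF8KO. The log2 fold change was −1.52 (SE 0.31, adjusted p = 0.0135), also without overlap. Ndufs1, the largest core subunit of the complex, was at 44.2, 59.5, 110 and 55.7 CPM in WT and at 105, 98.7, 77.2 and 123 in IRF8KO. These ranges overlapped, and the fold change of 0.53 (SE 0.34, adjusted p = 0.382) was not called. Among assembly factors Ndufaf2 fell most, by 1.89 (SE 0.45, adjusted p = 0.0268).

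In complexes III to V the named members were Uqcr11, Cox4i1, Atp5g1, Cox8a and the larger core subunits. Uqcr11, a small subunit of complex III, was at 757, 1085, 1186 and 2234 CPM in WT and at 339, 331, 462 and 463 in IRF8KO (log2 fold change −1.79, SE 0.38, adjusted p = 0.0166). Cox4i1, the ubiquitous isoform of subunit IV, was at 969, 1093, 1304 and 1999 CPM and at 546, 555, 600 and 670 (−1.24, SE 0.33, adjusted p = 0.0420). Atp5g1, which encodes a subunit of the rotor ring of complex V, was at 247, 375, 398 and 911 CPM and at 135, 143, 124 and 155 (−1.86, SE 0.40, adjusted p = 0.0164). In all of these, WT replicate 4 was the highest library and the groups did not overlap. Cox8a, at −1.40 (SE 0.41, adjusted p = 0.0547), missed the threshold. The larger core subunits were not called, with fold changes of −0.60 for Uqcrc1, −0.23 for Atp5a1, −0.18 for Atp5b and 0.33 for Sdha.

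Other lists were counted in the same comparison. Of 38 tested assembly genes outside the symbol rule, 3 fell, and none of 8 mitochondrially encoded genes or 17 tricarboxylic acid cycle genes was called. Glycolysis had 3 of 22 higher and 2 lower. Homeostatic microglia markers fell in 8 of 14, neutrophil markers rose in 7 of 13, and no red blood cell marker of 7 was called. The part of these cell markers was not tested. Coding genes under 1000 bases that are neither members, markers nor mitochondrial took 16.6% of gene counts in WT and 8.38% in IRF8KO, while the members took 2.98% and 1.48%.

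At 9 months the direction was the opposite. Of 88 tested members, 67 rose in IRF8KO and none fell, with 19.6% of all genes called higher. The median member was at 2.08 on the log2 scale, against 0.25 for all genes. The rises comprised 29 of 36 complex I subunits, 3 of 4 in complex II, 6 of 8 in complex III, 15 of 15 in complex IV and 14 of 17 in complex V, but 0 of 8 assembly factors. In 80 members every IRF8KO library lay above every WT library, against 29.5% of all genes, and in 1 every library was lower (19.3%).

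Cox8a was at 49.5, 60.4 and 39.4 CPM in WT and at 554, 499 and 500 in IRF8KO. The groups were far apart (log2 fold change 3.21, SE 0.27, adjusted p = 8.50e-06). Cox6c, another small subunit of complex IV, was at 28.9, 37.0 and 23.9 CPM in WT and at 293, 371 and 463 in IRF8KO (3.48, SE 0.34, adjusted p = 2.15e-05). Cox6b2, the testis isoform of subunit VIb, had counts in 1 WT library only, at 0.425 CPM, and was at 19.4, 29.9 and 5.91 CPM in IRF8KO (6.94, SE 1.36, adjusted p = 0.00262), a fitted value that depends on the prior count. All IRF8KO libraries of these 3 genes lay above all WT libraries.

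Ndufa1, an X-linked small subunit of complex I, was at 37.9, 40.4 and 31.1 CPM in WT and at 228, 339 and 337 in IRF8KO (log2 fold change 2.88, SE 0.31, adjusted p = 4.06e-05). Atp5mpl, a small proteolipid of complex V, was at 24.2, 31.0 and 18.7 CPM and at 188, 258 and 296 (3.16, SE 0.35, adjusted p = 5.24e-05). Here the catalytic subunit Atp5b rose as well, from 387, 344 and 286 CPM to 1364, 890 and 772 (1.41, SE 0.25, adjusted p = 0.00136). In all 3 genes the groups did not overlap. Sdha, at 257, 243 and 242 CPM in WT and 382, 370 and 337 in IRF8KO, did not overlap between groups but was not called (0.39, SE 0.24, adjusted p = 0.241). Ndufaf7, an assembly factor that methylates a complex I subunit (chr17:78937136-78948052, plus strand), was at 39.6, 48.0 and 37.4 CPM and at 29.0, 32.9 and 22.3, the only member here whose IRF8KO libraries were all lower (−0.73, SE 0.36, adjusted p = 0.147).

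Alongside, 7 of 8 tested mitochondrially encoded genes rose, with a median of 5.11 on the log2 scale, and glycolysis rose in 16 of 22 genes and fell in 2. The tricarboxylic acid cycle had 4 of 17 higher and 1 lower, and assembly genes outside the symbol rule 6 of 38 higher. Markers moved with the genotype: 13 of 13 for neutrophils, 7 of 7 for red blood cells and 8 of 8 for neurons were higher, and 13 of 14 for homeostatic microglia lower. Of the 13 neutrophil markers, 8 had no count in any WT library at 9 months. The part of these cells in the members' rise was not tested. Y-linked transcripts were present in 3 of 3 WT and 2 of 3 IRF8KO libraries and Xist in 0 and 2, and the part of sex was not tested. Coding genes under 1000 bases that are neither members, markers nor mitochondrial took 8.24% of gene counts in WT and 7.27% in IRF8KO, while the members took 0.612% and 1.59%. With markers and mitochondrial genes counted in, coding genes under 1000 bases other than the members took 8.36% and 22.2%.

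The effect of IRF8 loss thus differed between ages, and this difference was tested in a model of both experiments. It was called higher for 73 of 90 members and lower for none, with 18.0% of all genes called higher. The median member was at 3.31, against 0.40 for all genes. By complex, 32 of 36 members of complex I, 3 of 8 assembly factors, 2 of 4 of complex II, 6 of 8 of complex III, 15 of 17 of complex IV and 15 of 17 of complex V were called. The difference for Cox8a was 4.69 (SE 0.54, adjusted p = 1.53e-05) and that for Atp5mpl 4.84 (SE 0.57, adjusted p = 1.90e-05). Sdha (0.12, SE 0.41) and Ndufs1 (0.42, SE 0.49) were not called. The IRF8KO groups themselves were close in share of counts at the 2 ages, 1.48% and 1.59%, with overlapping libraries, while the WT groups stood at 2.98% and 0.612%. Age and experiment cannot be told apart here. The WT of the 2 ages also differ in neutrophil markers (a mean of 3.84% of gene counts at 3 months against at most 0.000496% in a library at 9 months).

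**Figure D2:**
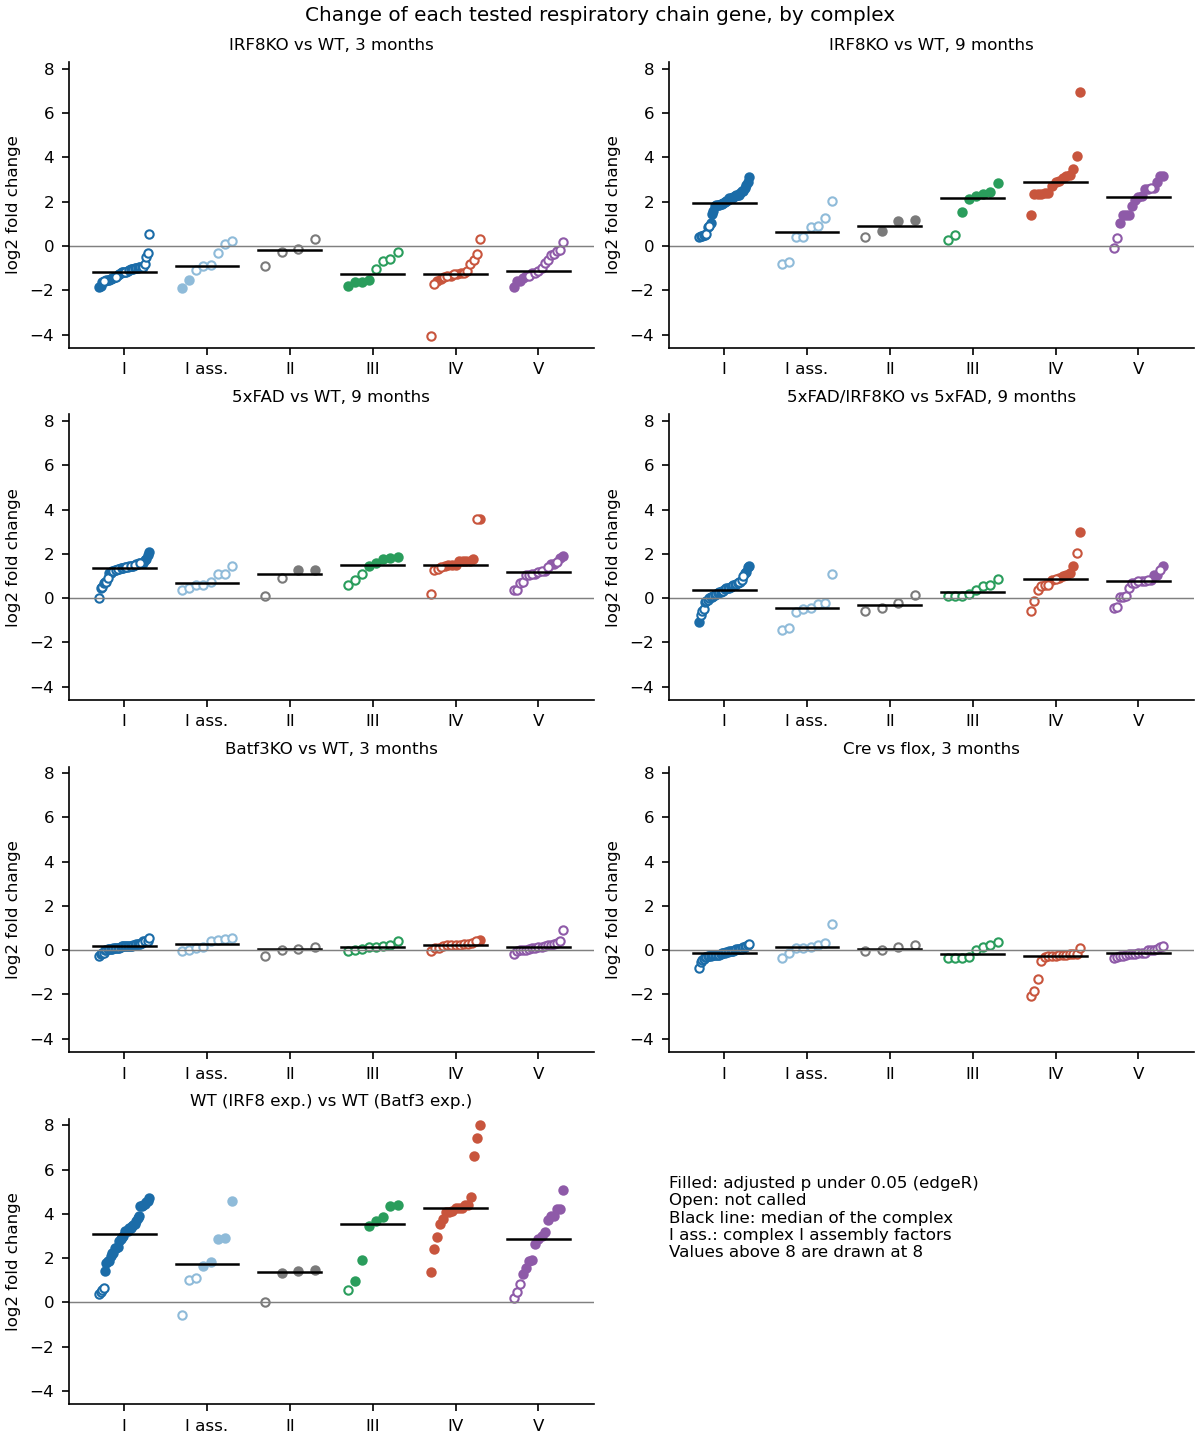
Log2 fold change (vertical axis) of each tested respiratory chain gene, arranged by complex, in 7 comparisons. Filled points were called at an adjusted p under 0.05, open points were not, and black lines are medians. At 3 months 35 members lie below 0 as filled points in IRF8KO, and at 9 months 67 lie above it.

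In 5xFAD mice with intact Irf8 the chain was higher than in WT of the same age. All 88 tested members had a fold change above 0, and 41 were called, none lower, with 1.81% of all genes called higher. The median member was at 1.35, against 0.00 for all genes. The calls were 18 of 36 in complex I, 0 of 8 assembly factors, 2 of 4 in complex II, 5 of 8 in complex III, 10 of 15 in complex IV and 6 of 17 in complex V. In 82 members all 5xFAD libraries lay above all WT libraries, against 25.1% of all genes. The count of 41 did not hold when a library was left out: it was 15 without 5xFAD replicate 1 and 0 without any other library of the 2 groups. All genes called were 102 of 15833 without 5xFAD replicate 1 and 2 to 6 without any other library, against 290 with all. A count of 0 members is thus uninformative there. With edgeR, an unadjusted p under 0.05 was reached by 65 to 70 members in these fits, against 70 with all libraries. This comparison shares its WT libraries with the IRF8KO comparison at 9 months.

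Cox8a was at 49.5, 60.4 and 39.4 CPM in WT and at 141, 183 and 209 in 5xFAD (log2 fold change 1.75, SE 0.26, adjusted p = 0.0123). Ndufa1 was at 37.9, 40.4 and 31.1 CPM and at 115, 172 and 197 (2.06, SE 0.30, adjusted p = 0.0123). Uqcr11 was at 71.4, 89.2 and 55 CPM and at 228, 285 and 319 (1.87, SE 0.30, adjusted p = 0.0153). None of these overlapped. Ndufs8 was at 99.2, 128 and 75.7 CPM in WT and at 260, 307 and 307 in 5xFAD (1.45, SE 0.28, adjusted p = 0.0244), and Sdhb at 119, 147 and 119 CPM and at 301, 344 and 344 (1.29, SE 0.24, adjusted p = 0.0227). Both rose without overlap. Cox6a2, the isoform of subunit VIa known from heart and skeletal muscle, was at 1.32, 1.27 and 1.04 CPM in WT and at 11.4, 15.0 and 21.1 in 5xFAD (3.58, SE 0.81, adjusted p = 0.0434), a call that was lost with RLE scaling, without the filter on low counts and without any 1 library of the 2 groups.

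Neutrophil markers were not called in any of 13 genes, nor red blood cell markers in any of 7, and homeostatic microglia markers rose in 2 of 14. Y-linked transcripts were present in 3 of 3 WT and 1 of 3 5xFAD libraries, and the part of sex was not tested. No mitochondrially encoded gene of 8 and no tricarboxylic acid cycle gene of 17 was called, while 3 of 38 assembly genes outside the symbol rule and 3 of 22 glycolysis genes rose. Coding genes under 1000 bases that are neither members, markers nor mitochondrial took 15.7% of gene counts in 5xFAD and 8.24% in WT.

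With IRF8 absent, the 5xFAD transgene went with no called member. Between 5xFAD/IRF8KO and IRF8KO at 9 months, 0 of 88 members were called by edgeR, DESeq2 or limma-voom, while 0.164% of all genes were called by edgeR. An unadjusted p under 0.05 was reached by 0 members with edgeR, 4 with DESeq2 and 1 with limma-voom. The median member was at −0.21, against 0.00 for all genes, and 1 member was higher and 4 lower without overlap, against 5.58% and 5.49% of all genes. The interaction of the transgene with IRF8 loss was negative in 87 of 88 members and called in 8, all lower, with 0.247% of all genes called lower. The 8 were 2 of complex I, 1 of complex III and 5 of complex IV. The interaction was −2.56 for Ndufa1 (SE 0.41, adjusted p = 0.0330), −2.21 for Cox8a (SE 0.36, adjusted p = 0.0330), −2.17 for Uqcr11 (SE 0.42, adjusted p = 0.0495) and −1.75 for Cox4i1 (SE 0.32, adjusted p = 0.0458). The number called ran from 0 to 25 over left-out libraries: it was 25 without 5xFAD/IRF8KO replicate 3, 16 without IRF8KO replicate 1, 4 and 5 without IRF8KO replicates 2 and 3, 2 without 5xFAD replicate 1 and 1 without 5xFAD/IRF8KO replicate 2. It was 0 without any 1 WT library, 5xFAD replicate 2 or 3, or 5xFAD/IRF8KO replicate 1. In those fits 2 to 20 of all genes were called, against 64 with all libraries. With edgeR, an unadjusted p under 0.05 was reached by 61 to 70 members with 1 library left out, against 68. Y-linked transcripts were present in 3 of 3 WT, 2 of 3 IRF8KO, 1 of 3 5xFAD and 3 of 3 5xFAD/IRF8KO libraries. The part of sex was not tested.

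Between the 2 amyloid groups, 17 members rose and 1 fell in 5xFAD/IRF8KO relative to 5xFAD, with 18.0% of all genes called higher and 9.72% lower. The median member was at 0.45, against 0.24 for all genes. The share called higher, 17 of 88, was thus close to that of all genes. The rises were 5 in complex I, 7 in complex IV and 5 in complex V, with none in complexes II and III. In 39 members all 5xFAD/IRF8KO libraries were higher and in 7 all were lower, against 27.0% and 21.5% of all genes. The number of members called, 18, fell to 2, 4 and 4 without 5xFAD replicate 1, 2 or 3 and to 11 and 7 without 5xFAD/IRF8KO replicate 1 or 3. All genes called were 2485, 2325 and 2691 without 5xFAD replicate 1, 2 or 3, against 4054 with all libraries.

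Cox6c rose from 71.5, 99.8 and 95.2 CPM in 5xFAD to 222, 186 and 375 in 5xFAD/IRF8KO (log2 fold change 1.46, SE 0.31, adjusted p = 0.00492). Cox8a rose from 141, 183 and 209 CPM to 363, 294 and 482 (1.00, SE 0.25, adjusted p = 0.0110), and Atp5k from 28.9, 40.2 and 49.8 CPM to 111, 62.4 and 174 (1.46, SE 0.39, adjusted p = 0.0152). Replicate 2 was the lowest of the 5xFAD/IRF8KO libraries in all 3 genes, still above 5xFAD. Ndufs8 was the 1 member that fell, from 260, 307 and 307 CPM to 165, 97.8 and 175 (−1.10, SE 0.27, adjusted p = 0.0102). All its libraries were lower, as they were relative to WT in the IRF8KO group at 3 months but not at 9 months, where Ndufs8 was at 220, 178 and 218 CPM against 99.2, 128 and 75.7.

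In this pair 13 of 13 neutrophil and 7 of 7 red blood cell markers were higher and 14 of 14 homeostatic microglia markers lower, and their part in the members' values was not tested. Y-linked transcripts were present in 1 of 3 5xFAD and 3 of 3 5xFAD/IRF8KO libraries and Xist in 2 and 2, and the part of sex was not tested. Mitochondrially encoded genes rose in 7 of 8, glycolysis in 13 of 22 (3 lower), the tricarboxylic acid cycle in 4 of 17 (2 lower), and no assembly gene of 38 outside the symbol rule was called (edgeR).

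**Figure D3:**
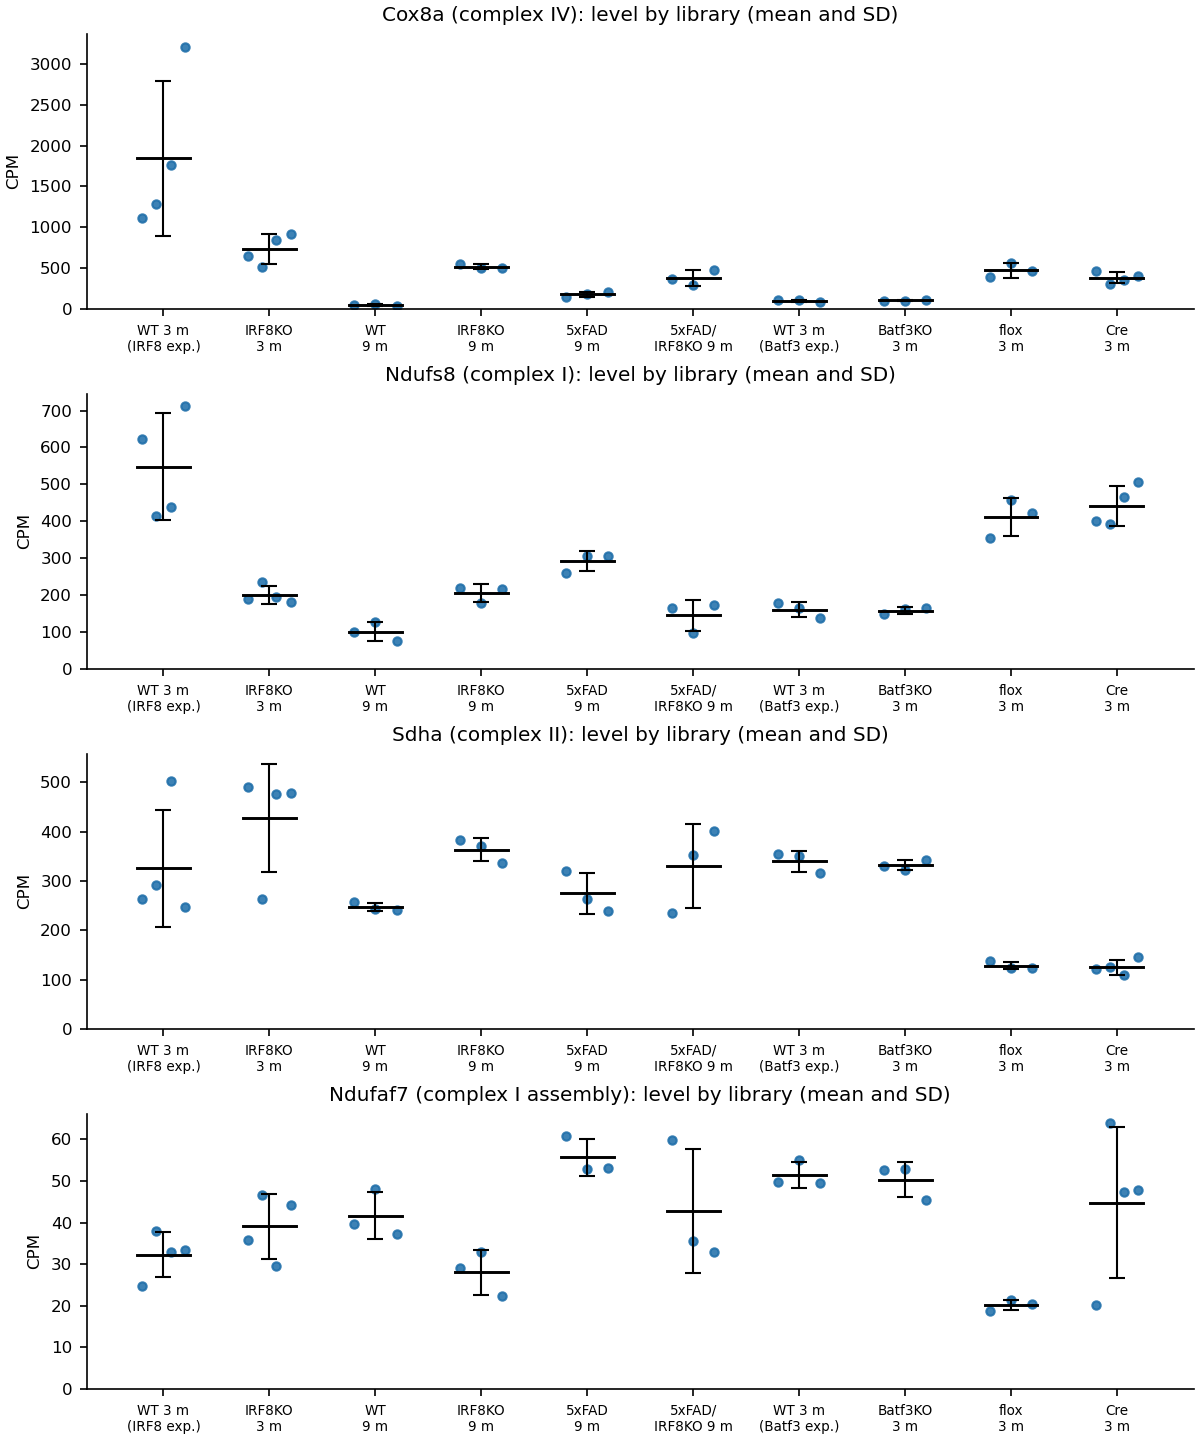
Level in CPM of Cox8a, Ndufs8, Sdha and Ndufaf7 in each library (points) of the 10 groups, with mean and SD. Cox8a runs from 39.4 CPM in a WT library at 9 months to 3212 in a WT library at 3 months, Sdha from 109 to 502, and Ndufaf7 is higher in 3 of 4 Cre libraries than in all flox libraries.

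Respiratory chain transcripts are short, and the changes followed length. The median member has a transcript of 744 bases (range 315 to 3632), 61 of 94 are under 1000 bases, and the medians run from 541 bases in complex III and 612 in complex IV to 2066 in complex II. In IRF8KO at 3 months, members under 700 bases had a median log2 fold change of −1.41 with 21 of 39 called lower, and other coding genes of that length −0.89 with 34 of 279 called lower. At 9 months the medians were 2.37 (35 of 38 called higher) and 1.80 (149 of 301). In 5xFAD they were 1.57 (24 of 38) and 1.28 (52 of 301), and between the 2 WT groups 3.90 (40 of 40) and 2.72 (244 of 301). The 4 members of 2500 bases and over had medians of 0.20, 0.65, 0.35 and 0.75 in these 4 comparisons, against 0.26, 0.11, −0.31 and −0.33 for other coding genes of that length.

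Across the tested members, Spearman's rho between length and change was 0.68 in IRF8KO at 3 months (89 members), −0.68 at 9 months (88), −0.60 in 5xFAD (88) and −0.77 between the WT groups (90). For other coding genes it was 0.21, −0.05, −0.53 and −0.27. These are descriptions across genes, which share libraries and are not independent. The cause of this relation was not tested.

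An alternative chosen after seeing the data took out each library's trend with transcript length. In IRF8KO at 3 months it left 2 members lower, Ndufa10 and Ndufa12, with 3.15% of all genes called lower and a median member of −0.48. In IRF8KO at 9 months it left 61 of 88 higher, with 17.9% of all genes called higher and a median of 1.44, and Cox8a at 2.42 (SE 0.22, adjusted p = 1.76e-05). In 5xFAD it left 0 members called by edgeR, 33 with an unadjusted p under 0.05, 0.0137% of all genes called higher and a median of 0.57. The interaction likewise had 0 called (33 at an unadjusted p under 0.05, 0.0206% of all genes called lower, median −0.75). Between the amyloid groups it gave 33 higher and 2 lower, with 17.1% and 9.57% of all genes, and Atp5b was then called at 0.80 (SE 0.21, adjusted p = 0.0161). Between 5xFAD/IRF8KO and IRF8KO 0 members were called, with 0.171% of all genes. The difference between ages kept 63 members higher, with 15.8% of all genes, and that between the WT groups 69, with 24.5%.

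**Figure D4:**
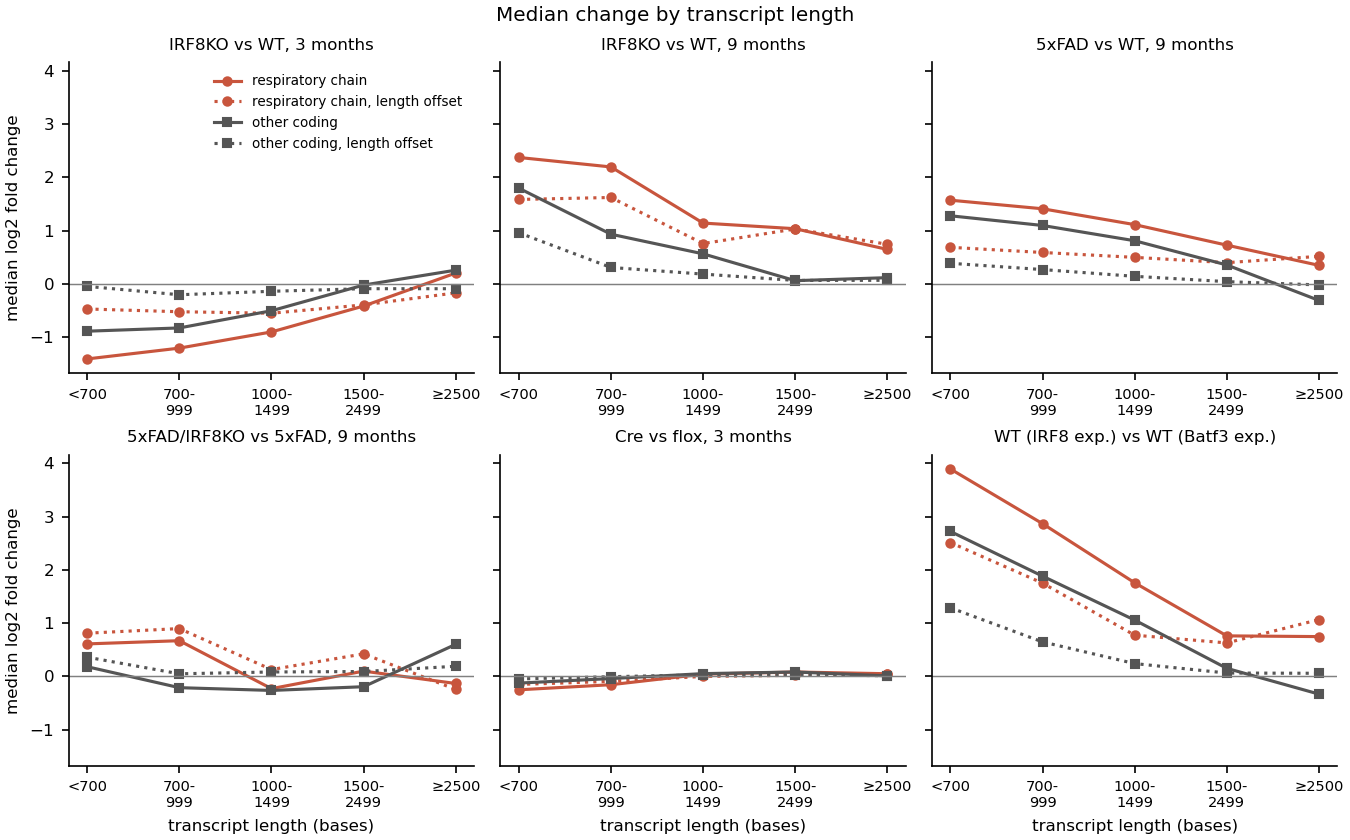
Median log2 fold change (vertical axis) of respiratory chain genes and of other coding genes by transcript length class (horizontal axis, bases), before (solid) and after (dotted) taking out each library's length trend, in 6 comparisons. In IRF8KO at 9 months members stay above other coding genes after the offset (median of all members 1.44), while in 5xFAD their median falls from 1.35 to 0.57.

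Loss of BATF3 moved the chain little. Of 86 tested members, 3 rose and none fell in Batf3KO, with 1.41% of all genes called higher, and the median member was at 0.17, against 0.00 for all genes. The fold change was above 0 in 76 members. In 25 members all Batf3KO libraries lay above all WT libraries, against 8.24% of all genes. Ndufa4, a subunit first assigned to complex I and later to complex IV, was at 59.5, 57.7 and 50.1 CPM in WT and at 77.7, 70.1 and 73.3 in Batf3KO (log2 fold change 0.46, SE 0.10, adjusted p = 0.0205). Ndufv2, an iron-sulfur subunit of complex I, was at 54.9, 60.2 and 51.3 CPM and at 70.9, 74.1 and 67.7 (0.41, SE 0.10, adjusted p = 0.0397). Ndufc2, a small membrane subunit of complex I, was at 64.3, 56.7 and 60.6 CPM and at 71.9, 80.5 and 78.0 (0.40, SE 0.10, adjusted p = 0.0385). All 3 rose without overlap. The 3 calls became 1, 0 and 2 without WT replicate 1, 2 or 3 and 0 without Batf3KO replicate 1 or 2. All genes called ran from 219 to 596 with 1 library left out, against 503 with all.

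Mitochondrially encoded genes (0 of 8) and the tricarboxylic acid cycle (0 of 17) were not called, 1 of 38 assembly genes outside the symbol rule fell, and glycolysis had 1 of 22 higher and 1 lower. With each library's length trend taken out, Ndufv2 alone was called, with 1.33% of all genes called higher.

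In the conditional knockout, no member was called between Cre and flox by edgeR, as 0% of all genes were, and the length offset likewise gave 0 members and 0% of all genes. At an unadjusted p under 0.05 there were 8 members, DESeq2 called 1 and limma-voom 2. The median of 88 members was −0.14, against 0.01 for all genes. In 2 members all Cre libraries were higher and in 4 lower, against 2.99% and 4.76% of all genes. The library labelled Cre 1 has Irf8 at the flox level, and Batf3 ran opposite to its direction in the germline knockout, so that each fold change here is that of libraries labelled Cre against libraries labelled flox.

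Cox6a2 (chr7:128205435-128206387, minus strand) was at 259, 165 and 210 CPM in flox and at 211, 8.48, 12.1 and 6.30 in Cre. The library labelled Cre 1 was at the flox level, and the other 3 were far below. With all 4 the log2 fold change was −1.86 (SE 0.91, adjusted p = 0.592). Without Cre 1, 6.24% of all genes and 3 members were called, and Cox6a2 fell by 4.52 (SE 0.24, adjusted p = 1.29e-10), from 211 ± 47.0 CPM (SD, n = 3) to 8.97 ± 2.94 (SD, n = 3). The flox levels were the highest of the series: outside the conditional experiment the highest library was at 33.1 CPM. Border macrophage markers moved along the same libraries, with 0.0116% to 0.0161% of gene counts in flox, 0.0208% in Cre 1 and 0.000645% to 0.00110% in Cre 2 to 4. With all 4 Cre libraries, 0 of 6 tested border macrophage markers were called by edgeR (4 had an unadjusted p under 0.05), with a median of −2.0 on the log2 scale. That fit called 0 of 15512 genes, so the lack of calls among these markers and those of other cell types is uninformative. Their part in the Cox6a2 values was not tested.

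Cox6a1, the isoform of other tissues, was at 421, 661 and 474 CPM in flox and at 507, 328, 370 and 425 in Cre, and was not called with Cre 1 (−0.33, SE 0.20, adjusted p = 0.731) or without it (−0.42, SE 0.19, adjusted p = 0.286). Per length, Cox6a2 stood at 36.6% of Cox6a1 in flox (21% to 51.7%, n = 3), against 0.736% in WT of the IRF8 experiment at 3 months, 3.02% in WT of the Batf3 experiment and 4.63% in 5xFAD. Cox6b2 was at 4.96, 4.91 and 9.80 CPM in flox and at 6.32, 0.986, 1.76 and 1.69 in Cre, again with Cre 1 at the flox level. It was not called with all 4 (−1.29, SE 0.53, adjusted p = 0.463), and without Cre 1 it fell by 2.08 (SE 0.43, adjusted p = 0.00336). Ndufaf7 was at 18.8, 21.3 and 20.4 CPM in flox and at 20.1, 63.9, 47.3 and 47.8 in Cre, and rose without Cre 1 (1.44, SE 0.19, adjusted p = 2.58e-05) but was not called with it (1.19, SE 0.31, adjusted p = 0.227). Itgad, which overlaps 10.3% of the Cox6a2 exons on the other strand, was at no more than 0.238 CPM in any flox or Cre library.

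**Figure D5:**
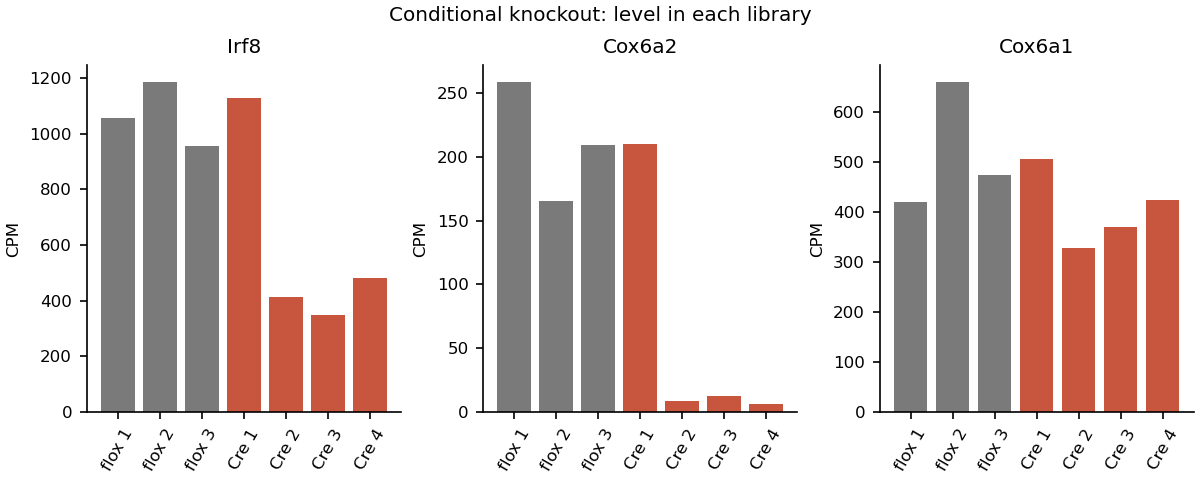
Level in CPM (bars, from 0) of Irf8, Cox6a2 and Cox6a1 in each flox (grey) and Cre (red) library. Cre 1 stands with flox for Irf8 (1126 CPM) and Cox6a2 (211 CPM), and the other 3 Cre libraries have Cox6a2 at 6.30 to 12.1 CPM.

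The germline and conditional effects at 3 months were compared in 1 model. Y-linked transcripts were present in 3 of 4 WT and 4 of 4 IRF8KO libraries and Xist in 0. Xist was present in 3 of 3 flox and 4 of 4 Cre libraries and Y-linked transcripts in 0. Sex, experiment and kind of knockout thus cannot be told apart here. The conditional effect, taken as the libraries labelled Cre against those labelled flox, was called higher in 17 of 89 members and lower in none, with 4.37% of all genes called higher, and the median member was at 1.12, against 0.27 for all genes. The 17 were 10 of complex I, 1 assembly factor, 1 of complex II, 2 of complex III, 1 of complex IV and 2 of complex V. Ndufa12, at 260, 280, 330 and 637 CPM in WT, 113, 102, 102 and 141 in IRF8KO, 73.3, 86.4 and 68.4 in flox and 72.5, 75.5, 81.0 and 80.7 in Cre, differed by 1.92 (SE 0.38, adjusted p = 0.00698). It fell in the germline knockout and had overlapping flox and Cre libraries. Ndufs8, at 355, 458 and 422 CPM in flox and 400, 392, 466 and 507 in Cre, differed by 1.72 (SE 0.34, adjusted p = 0.00683). The count changed with single libraries, from 2 without flox replicate 1 (3 without flox replicate 3, 8 without replicate 2) to 37 without WT replicate 1 and 26 without WT replicate 4. It was 10 and 11 without IRF8KO replicate 1 or 3 and 11 and 7 without Cre replicate 3 or 4. Without the library labelled Cre 1 it was 13, with Ndufa12 at 1.98 (SE 0.40, adjusted p = 0.00696) and Ndufs8 at 1.79 (SE 0.36, adjusted p = 0.00611). With each library's length trend taken out it was 4 (Ndufa12, Uqcrq, Ndufa11 and Ndufs8), with 3.69% of all genes called higher. All genes called were 471, 575 and 514 without flox replicate 1, 2 or 3 and 1395 without WT replicate 1, against 1223 with all. With edgeR, an unadjusted p under 0.05 was reached by 42 to 61 members with 1 library left out, against 57.

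Over the 7 comparisons between genotypes, 23 records were called in none, 17 in 1, 20 in 2, 30 in 3, 3 in 4 (Ndufa13, Ndufs8 and Ndufb9) and 1 in 5 (Ndufa4). The 23 include the 5 records under 5 CPM in every group. The same distribution over all genes is not given here. All genes called were 970 of 13121 in IRF8KO at 3 months, 4136 of 14604 at 9 months and 290 in 5xFAD. They were 4054 between the amyloid groups, 24 between 5xFAD/IRF8KO and IRF8KO, 503 of 13128 in Batf3KO and 0 for Cre. Ndufa4 was at 560, 743, 670 and 1574 CPM in WT and 295, 345, 281 and 324 in IRF8KO at 3 months (log2 fold change −1.58, SE 0.38, adjusted p = 0.0266). At 9 months it was at 51.6, 67.6 and 46.7 CPM in WT, 337, 484 and 584 in IRF8KO, 137, 173 and 178 in 5xFAD and 265, 272 and 542 in 5xFAD/IRF8KO. Both single 9-month genotypes were thus above WT without overlap, and these comparisons share the WT libraries. Its paralog Ndufa4l2, known from hypoxia, did not pass 0.952 CPM in any group mean. Of the other tissue isoforms, Cox4i2 stayed at or under 0.655 CPM and Cox8c at or under 0.207 in every group mean. The heart and muscle isoform Cox8b varied within WT of the IRF8 experiment from 0 to 56.4 CPM (0, 56.4, 14.3 and 38.7) and was at 2.06, 3.94, 0.746 and 0.182 in IRF8KO at 3 months, so that the ranges overlapped.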

How the data were processed

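RNA-seq libraries were deposited as whole-number read counts per gene, 1 file per library; per the submitters' processing notes reads were aligned with STAR 2.5.2b to mm10. The columns of each file match STAR's gene counts, of which the deposited unstranded counts were used, since the stranded columns split the reads evenly (49.5% to 50.1% on the first strand). The protocols in the labels name a SMART-Seq v4 kit with 15 cycles of amplification and Nextera XT. Of 54146 identifiers, 54079 were found in GENCODE M21 ignoring versions. The 4 summary lines were left out of depths and tests, and 47.3% to 78.6% of the reads in a file fell in genes. This range split by group: 48.63% to 53.44% in IRF8KO against 74.67% to 77.35% in WT at 9 months. Reads mapping to several places were 15.1% to 35.4% and 4.86% to 5.20% in these 2 groups. They were 20.5% to 29.74% in WT of the IRF8 experiment at 3 months and 3.998% to 4.024% in WT of the Batf3 experiment. The part of this in the members' values was not tested.

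Counts were tested with edgeR 4.0.16 (R 4.3.3): filterByExpr, TMM, quasi-likelihood F-test and Benjamini-Hochberg adjustment over all genes, called at 0.05. The 4 groups at 9 months shared 1 fit, other pairs were fitted alone, and differences of effects were fitted with all groups involved. Levels are CPM with 1 TMM scaling over all 33 libraries, which moves a group difference by up to 0.18 on the log2 scale relative to the fits. Lengths are those of 1 transcript per gene in M21, of median length among its best-ranked coding transcripts, and per-length values divide by them. Reads of 55 bases shared with other genes cover over 20% of Atp5g2, Uqcrb, Cox7c and Ndufs5, and exons of Ndufa13, Ndufb6, Ndufaf2 and both Atp5o records overlap another gene by over 20%, so their counts are uncertain. Alternatives were RLE scaling, DESeq2 1.42.0, limma 3.58.1 (voom with quality weights), no filter, the replicate number as a block, 2 groups only, leaving out each library, and, chosen after seeing the data, a length offset (lowess over log length, span 0.3, prior count 2).

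The labels do not say that replicates came from separate litters or sorts, so p-values measure the spread between these libraries. The members and lists were chosen with earlier results of these data known. Named are a set of core subunits and isoforms, per comparison up to 5 called members with the largest rise and fall whose libraries do not overlap, members called in at least 4 of 7 genotype comparisons, and the leading member per length of each complex; where a gene falls outside it, it was chosen after its values were seen. The fits were tested on simulated data: of genes changed 4-fold, 100% were recovered in the Batf3 design (12828 genes), 99% in the conditional design (15149), 29.3% in the IRF8 design at 3 months (12456) and 9% at 9 months (13889). In the 9-month simulation 13689 genes were unchanged, whereas 4136 of 14604 genes were called in the data, so 9% describes the simulation only. With a length trend added, the fit called 32.6% of otherwise unchanged genes in the Batf3 design and 12.8% in the conditional design. The values were 0.154% and 0.0215% in the IRF8 design at 3 and 9 months, and 0% to 0.0797% with the length offset. The added trend had a single slope, set by hand and not fitted to the data. In the data, rho between length and change of other coding genes was −0.08 in Batf3KO and −0.04 for Cre. These percentages thus describe the simulation only. Promoter and motif tables are from RefSeq GRCm38.p6.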

Additional observations from a re-analysis of the deposited data

Results flagged for a closer look

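In groups of 4 libraries, 99 series of values were screened for a library far from its 3 fellows, and 9 stood out, where chance gives about 1 in 20. In WT of the IRF8 experiment at 3 months, replicate 4 stood out for Ndufa11 (930 CPM), Cox6b2 (62.5 CPM) and Cox6c (1411 CPM), and replicate 3 for Atp5a1 (783 CPM). In IRF8KO at 3 months, replicate 2 was low for Sdha (264 CPM) and replicate 3 high for Uqcrc1 (417 CPM). In Cre, replicate 1 was high for Cox6a2 (211 CPM) and Cox6b2 (6.32 CPM), and replicate 3 was the 1 library with a count of Cox8b (0.110 CPM).

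Effects of a genotype differed between settings in 3 tests. The 5xFAD effect differed by IRF8 genotype in 8 members, with differences of −2.56 for Ndufa1, −2.29 for Ndufa2, −2.21 for Cox8a, −2.17 for Uqcr11 and −2.07 for Cox7a2. The IRF8KO effect differed between 9 and 3 months in 73 members, with 8.99 for Cox7b2 (at 0 counts in WT at 9 months, so that the fitted value depends on the prior count), 7.49 for Cox6b2, 6.00 for Cox7a1, 4.84 for Atp5mpl and 4.83 for Atp5k. The conditional and germline effects at 3 months differed in 17 members, with 1.92 for Ndufa12, 1.88 for Ndufa11, 1.88 for Uqcrq, 1.82 for Atp5g1 and 1.72 for Ndufs8.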

How the results depend on the processing

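No named gene's fold change turned in direction under an alternative, but many results weakened. Of 171 results for named genes, 81 were the same under every alternative. With the leave-one-out fits and the length offset set aside it was 112. Weaker results numbered 65 with the length offset and 45 with the replicate block. The number of members called in IRF8KO at 3 months (35) was 56 with DESeq2 and 2 with the length offset, and 0 to 36 without a library. At 9 months (67) it was 57 to 64 without a library. In 5xFAD (41) it was 25 with RLE scaling, 21 without the filter, 14 with the replicate block, 74 with voom or 2 groups only, 0 with the length offset and 0 to 15 without a library. Between the amyloid groups (18) it was 7 without the filter, 35 with the length offset, 11 with 2 groups only and 2 to 18 without a library. For the interaction (8) it was 2 with RLE scaling, 51 with DESeq2, 0 with the block, voom or the length offset, and 0 to 25 without a library. In Batf3KO (3) it was 6 with DESeq2, 0 with the block, 7 with voom, 1 with the length offset and 0 to 3 without a library. For Cre (0) it was 1 with DESeq2, 4 without the filter, 2 with voom and 0 to 3 without a library. For the conditional against the germline effect (17) it was 29 with DESeq2, 11 without the filter, 1 with the block, 28 with voom, 4 with the length offset and 2 to 37 without a library. The age difference (73) gave 66 to 76 and the WT groups (78) 65 to 80 without a library. The number of all genes called moved too. In 5xFAD (290) it was 205 with RLE scaling, 163 without the filter and 105 with the block. It was 3821 there with voom, 4546 with 2 groups only, 3 with the length offset and 2 to 102 without a library. For the interaction (64) it was 898 with DESeq2, 9 with the block and 2 to 189 without a library. For the conditional against the germline effect (1223) it was 293 with the block. With 1 library left out, IRF8KO at 3 months had 305 to 1128 genes called (970 with all), and at 9 months 2266 to 4126 (4136). Between the amyloid groups it was 2325 to 4055 (4054), in Batf3KO 219 to 596 (503) and for Cre 0 to 952 (0). Same-numbered libraries correlated over 0.1 in 3 of 4 pairs in IRF8KO at 3 months and 2 of 3 for Cre. Other-numbered pairs there reached 0.18 and 0.19. In no comparison did all same-numbered pairs pass 0.1, so the replicate numbers were taken as no pairing. Of all genes called in 5xFAD, 91.0% were higher, against 81.0% with RLE scaling, and of those called for the interaction 43.8% against 62.5%. RLE scaling moved the median of all genes for the age difference from 0.40 to 0.57. Depth was lowest in a WT library at 9 months, at 605376 counts.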
